A study of Mus musculus with 8 samples.

Results

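MC011 is a mouse fibrosarcoma cell line labelled IRF8 KO, and its RNA was set against that of 2 lines labelled WT, MC654 and MC659. All 3 lines came from tumors that methylcholanthrene (MCA), a chemical carcinogen, had induced under the skin. IRF8 KO mice or wild-type C57BL/6 mice had received 100 µg of MCA in peanut oil, and the tumors were taken after about 3 months. Dissociated tumor cells were cultured for at least 10 passages. The study names RPMI medium with serum for its ferroptosis assay. The contrast used 6 of the 8 libraries of the series, 2 of MC011, 2 of MC654 and 2 of MC659. A second line labelled IRF8 KO, MC010, was left out of it and is given beside some results only.

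Per the study's methods, each was established as a stable tumor cell line. The contrast is therefore 1 line labelled IRF8 KO against 2 labelled WT, and the effect of the genotype and the difference between tumors cannot be told apart. The labels do not say that the 2 libraries of a line came from separate cultures, so p-values measure only the spread between these libraries, which may be technical. The libraries held from 77565006 to 94434078 counts, a depth at which 3 counts, taken as the floor of a library, corresponded to between 0.0309 and 0.0379 CPM (counts as a rate of the library's total, scaled by the TMM method). Floors cover counting error only. The 2 libraries of a line differed by more than sampling noise in every line, with a chi-square per degree of freedom between 8.64 and 15.4.

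As background, IRF8 is a transcription factor of the interferon regulatory factor family, best known for directing the development of myeloid cells. The family binds DNA elements in which GAAA is repeated, and through them several members drive interferon-stimulated genes, whose products restrict viruses, sense foreign nucleic acids and present antigen. Type I interferon acts through its receptor IFNAR, the kinases JAK1 and TYK2 and the factor ISGF3, of which STAT2 and IRF9 are parts, and many components of this chain are themselves interferon-stimulated genes, so that a basal tone can be kept by the cells' own interferon. Fibrosarcomas are tumors of fibroblast-like cells, which deposit collagen and fibronectin and keep a memory of their position in the body in the HOX genes.

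The study sequenced these lines to find genes that depend on IRF8 in tumor cells, with ferroptosis as its main interest. The targeted gene was examined first. Irf8 (ENSMUSG00000041515), which spans 120736358 to 120756694 on chromosome 8 in mm10, was read 32 and 10 times in MC011, against 1 and 2 counts for MC654 and 1 and 0 for MC659. Its RNA was thus higher in the line labelled IRF8 KO, at least 6.52-fold against the mean floor of the WT-labelled libraries, where all 4 were at or under 3 counts. It passed the filter on low counts only through MC011, so no fitted fold or p is given. The counts are totals over the gene and do not tell which exons were read, and because they go against the labels the lines are named here by label. In MC010 the gene had 442 and 347 counts.

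All 10 marker genes of fibroblasts were over the floor in all 6 libraries, at unlike levels. Vim (vimentin) had 5496 and 5223 CPM in MC011, 4839 and 4583.5 in MC654 and 4782 and 4924.5 in MC659. The 10 markers summed to 9150 to 9660 CPM in MC011 and 14100 to 15400 CPM in the WT-labelled lines, most of it from Vim and Fn1. Of the 10, 4 were called higher in MC011 and 2 lower. Pdgfra, Thy1 and S100a4 were at means of 443, 69.8 and 128 CPM in MC011. They were at 18.4, 10.9 and 20.2 CPM in the WT-labelled lines. Fap was low throughout, between 0.700 and 2.43 CPM. Of 14 hematopoietic markers, 7 were in the count table, and their summed level was 6.31 to 7.18 CPM in MC011 and 10.2 to 12 CPM in the WT-labelled lines, most of it from Cd68. Ptprc (CD45), which defines leukocytes, had 0 counts in both MC011 libraries and 1 or 2 in the WT-labelled ones, and 5 of the 7 markers were under 1 CPM in all 6 libraries. The part of any other cell type in the results was not tested. The 5 endothelial markers in the table were all under 1 CPM. Epithelial markers summed to 33.8 to 35.6 CPM in MC011 and 114 to 130 CPM in the WT-labelled lines, almost all of it from the keratins Krt8 and Krt18, with Epcam and Cdh1 at or under 1.18 CPM. Markers of skeletal muscle, adipocytes and Schwann cells summed to at most 3.42 CPM in any library.

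MC011 stood far from both WT-labelled lines, which were close to each other. Across genes, the log2 CPM of libraries of MC654 and MC659 correlated with a Pearson's r of 0.989, near the 0.992 and 0.993 of libraries of the same line, and libraries of MC011 correlated with those of the WT-labelled lines at 0.931 to 0.934. These are correlations across genes, which are not independent replicates. With thresholds of 0.05 on the adjusted p and 0.59 on the size of the log2 fold change, 765 of 16703 genes (4.58%) differed between MC654 and MC659 in a fit with a group per line, while MC011 differed from MC010, the other line labelled IRF8 KO, in 5447 (32.6%). Whether MC654 and MC659 come from separate tumors was not tested, so agreement against each of them is not counted as a repeat. The 4 WT-labelled libraries thus spread little, and this small spread stands behind the p-values below.

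Of 16095 genes tested, 4735 (29.4%) passed both thresholds between MC011 and the WT-labelled lines. Of these, 2679 (16.6%) were higher and 2056 (12.8%) lower in MC011. The 2 WT-labelled lines are nearly alike, so the count against each by itself is no independent repeat: 4056 genes (25.2%) were called and also passed both thresholds in the same direction against MC654 and against MC659, 2395 higher and 1661 lower. Both MC011 libraries lay outside the range of all 4 WT-labelled libraries in 10894 genes (67.7%), so that non-overlap by itself was the rule rather than the exception. By the adjusted p alone, the counts were 4585 above and 4333 below. For 258 genes called higher, all 4 WT-labelled libraries were at or under 3 counts, and for 201 called lower both MC011 libraries were. Such genes passed the filter on low counts only through the other group, so the filter fixed their direction.

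**Figure D1:**
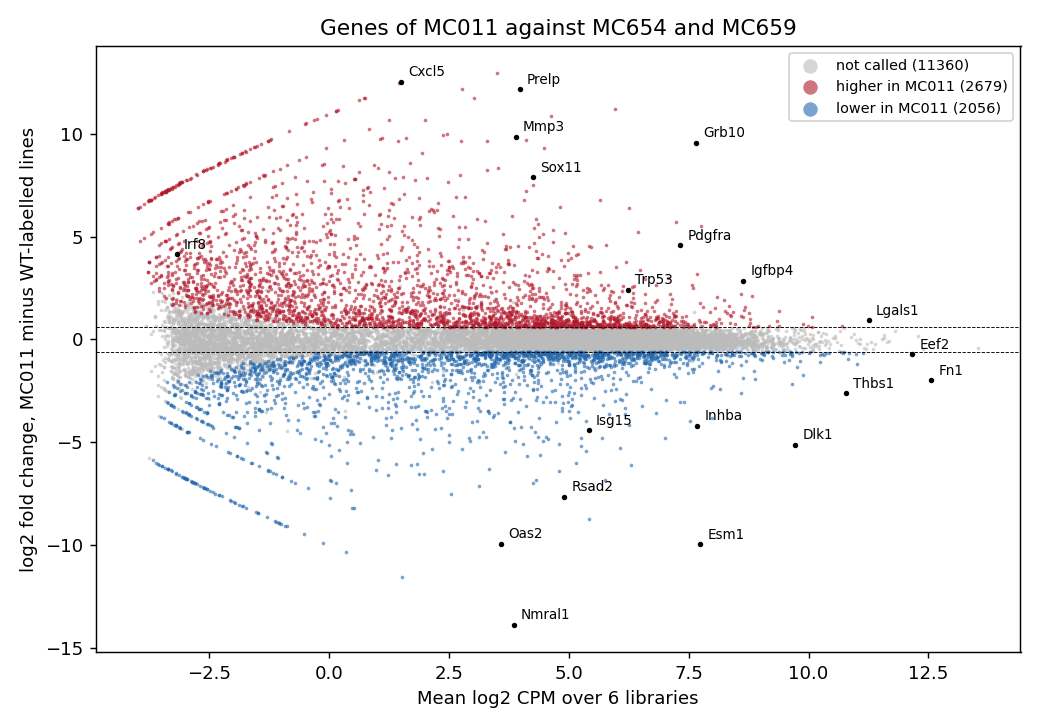
Log2 fold change of MC011 minus the WT-labelled lines (vertical), 1 point per gene tested. The horizontal axis, labelled as mean log2 CPM, is edgeR's log2 of the average CPM over 6 libraries. Genes passing both thresholds are red (2679 higher in MC011) or blue (2056 lower), dashed lines mark a log2 fold change of 0.59 in size, and the diagonal streaks at low levels are genes with no or almost no counts in one group, whose fitted fold change depends on the prior count.

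The genes were read in lists by function, each set beside the shares of all genes tested that were called higher (16.6%) and lower (12.8%). The lists were drawn up with earlier results of these data known, so their counts are descriptions. A mean set "against" that of MC011 is over the 4 WT-labelled libraries. SE is a standard error worked back from the test, as the size of the log2 fold change over the square root of the test's F statistic. Values in brackets without a unit are log2 fold changes, MC011 minus the WT-labelled lines.

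**Figure D2:**
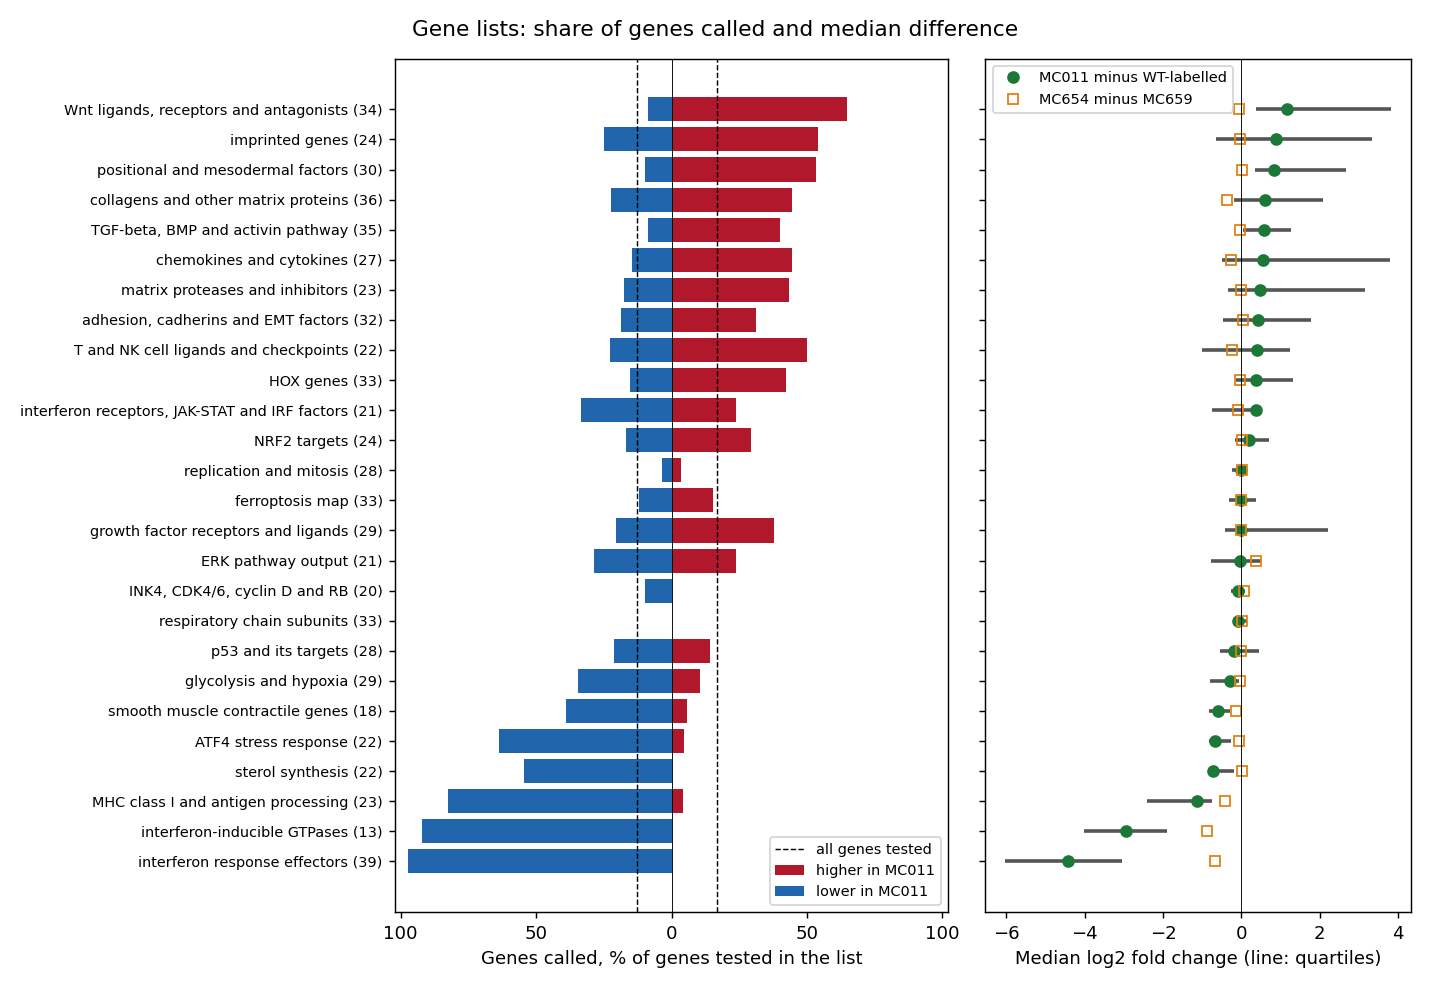
Left, share of the tested genes of each list that were called higher (red) or lower (blue) in MC011, with dashed lines at the shares of all genes tested and the number of genes tested in brackets. Right, median log2 fold change of the list for MC011 minus the WT-labelled lines (circles, with lines from the lower to the upper quartile) and for MC654 minus MC659 (squares). The interferon lists lie at the bottom, with medians of -4.43 and -2.95, and the Wnt list at the top, with 1.17.

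Interferon-stimulated genes formed the group with the largest share of calls. Of 39 interferon response effectors tested, 38 were lower in MC011 and 0 higher, with a median log2 fold change of -4.43 (-4.26 with the 2 genes at the floor in MC011 set to their bound), against -0.01 over all genes tested. All 39 were below every WT-labelled library in both MC011 libraries, as were 5379 of all 16095 genes tested. The motif GAAANNGAAA, in which N is any base, or its reverse complement TTTCNNTTTC on the strand shown, was searched in the RefSeq promoters of build GRCm38.p6, from 250 bases before to 50 after the start site. It was in 1131 of 32851 promoters (3.44%), in those of 387 of 10717 tested genes with an entry (3.61%), in 13 of 28 interferon response effectors (46.4%) and in 9 of 10 interferon-inducible GTPases. A match is a description of the letters and not a bound site. 5 stretches of 80 bases that lie before the start site are given as examples, 1 for each of 5 called genes on 5 chromosomes, chosen by hand among those that hold the motif. Each is written 5′ to 3′ on the strand of its gene, with the motif, or overlapping copies of it, in capitals:
Isg15: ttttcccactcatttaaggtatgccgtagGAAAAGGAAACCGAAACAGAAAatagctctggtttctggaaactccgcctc
Ifit1: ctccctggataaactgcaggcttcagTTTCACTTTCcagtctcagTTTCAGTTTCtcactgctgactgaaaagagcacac
Rsad2: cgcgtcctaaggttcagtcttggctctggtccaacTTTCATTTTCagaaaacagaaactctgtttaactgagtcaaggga
Igtp: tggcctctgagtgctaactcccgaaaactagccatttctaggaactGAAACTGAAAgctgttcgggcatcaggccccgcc
Oas3: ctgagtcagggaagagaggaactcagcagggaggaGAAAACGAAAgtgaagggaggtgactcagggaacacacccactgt
The motif began 78, 72 and 66 bases before the start site of Isg15 (overlapping copies), 104 and 85 before that of Ifit1, 120 before that of Rsad2, 34 before that of Igtp and 75 before that of Oas3. The windows are chr4:156200846-156200925 (minus strand) for Isg15, chr19:34640759-34640838 (plus strand) for Ifit1, chr12:26456528-26456607 (minus strand) for Rsad2, chr11:58199476-58199555 (plus strand) for Igtp and chr5:120777690-120777769 (minus strand) for Oas3 in GRCm38.p6.

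The genes behind these promoters were low in MC011 and high in both WT-labelled lines. Isg15, a ubiquitin-like protein that is attached to other proteins, had 2.78 and 3.03 CPM in MC011, 50.4 and 47.7 in MC654 and 73.6 and 78.4 in MC659. The groups did not overlap, and the log2 fold change was -4.43 ± 0.33 SE, adjusted p = 1.65e-04. Ifit1, which binds foreign RNA caps, had 2.2 and 2.94 CPM in MC011, 81.6 and 82.5 in MC654 and 117 and 118 in MC659 (log2 fold change -5.29 ± 0.30 SE, adjusted p = 4.59e-05). Rsad2, which encodes the antiviral enzyme viperin, had 0.227 and 0.214 CPM in MC011, 26.3 and 28.3 in MC654 and 65.8 and 58.4 in MC659, a 203-fold lower mean in MC011 (log2 fold change -7.65 ± 0.87 SE, adjusted p = 0.00153). In each of these genes MC654 lay between MC011 and MC659. Usp18, which removes ISG15 and dampens the receptor, had 0.223 ± 0.0239 CPM in MC011 (SD, n = 2) against 28.4 ± 8.43 CPM (SD, n = 4) (log2 fold change -6.99 ± 0.49 SE, adjusted p = 9.09e-05). Oas2, an RNA-activated enzyme of the oligoadenylate synthetase family, had 3 and 0 counts in MC011 and between 1134 and 2003 in the WT-labelled libraries, at least 524-fold lower in MC011 against the mean floor of its libraries. Oas3 had 1.25 and 1.17 CPM in MC011, 21.0 and 18.6 in MC654 and 48.6 and 50.8 in MC659 (log2 fold change -4.84).

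The sensors and restriction factors of the same list went the same way. Ifih1 (MDA5) and Ddx58 (RIG-I), sensors of viral RNA, had log2 fold changes of -5.44 and -3.0, from 1.39 ± 0.515 CPM in MC011 (SD, n = 2) against 61.2 ± 17.5 CPM (SD, n = 4) and 11.02 ± 1.15 CPM in MC011 (SD, n = 2) against 87.9 ± 18.7 CPM (SD, n = 4). Bst2 (tetherin), which holds budding virus at the membrane, had 6.93 and 6.41 CPM in MC011, 67.8 and 62.3 in MC654 and 98.3 and 104 in MC659 (log2 fold change -3.64 ± 0.31 SE, adjusted p = 3.53e-04). Oasl1, Oasl2, Ifi44, Rtp4, Samd9l and Slfn2 were lower by a log2 fold change of -6.01, -6.85, -6.83, -5.64, -4.77 and -6.11. The smallest called differences were those of Isg20 (-0.60), Trim25 (-0.95) and Eif2ak2 (-1.32). Ifit2 was the member not called, with 41.0 and 43.0 CPM in MC011, 50.9 and 58.1 in MC654 and 71.0 and 71.5 in MC659 and a log2 fold change of -0.58. The 2 WT-labelled lines were not alike in this list: 23 of its genes were called between them, with a median log2 difference of -0.67 for MC654 minus MC659. In MC010, Isg15 had a mean of 12.9 CPM, Ifit1 11.8 CPM and Rsad2 3.97 CPM, levels between those of MC011 and MC654. Other genes of the list were nearly as low in MC010 as in MC011, among them Ifi44 (mean 0.556 CPM) and Oas2 (10 and 3 counts).

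Interferon-inducible GTPases, which attack the vacuoles of intracellular pathogens, were lower in 12 of 13 tested, with 0 higher and a median of -2.95. Igtp had 0.988 and 1.49 CPM in MC011, 15.4 and 13.6 in MC654 and 24.8 and 25.7 in MC659 (log2 fold change -4.02 ± 0.43 SE, adjusted p = 5.61e-04), and Irgm2, Gbp3 and Gbp7 had log2 fold changes of -2.95, -3.52 and -4.01. Iigp1 had 6 and 10 counts in MC011, from 331 to 1010 in the WT-labelled libraries, and 8 and 4 in MC010. The smallest called difference was that of Gbp2, with 18.2 and 17.7 CPM in MC011, 27.6 and 28.8 in MC654 and 50.2 and 50.5 in MC659 (log2 fold change -1.13, adjusted p = 0.0452). Gbp9 was not called, and 10 of the 13 differed between MC654 and MC659. Tgtp1 and Tgtp2 are near-identical copies, so the division of reads between them is uncertain.

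No receptor or kinase gene was called lower: Ifnar1 had 98.2 and 98.5 CPM in MC011, 73.3 and 74.0 in MC654 and 67.4 and 65.2 in MC659 (log2 fold change 0.49, under the fold threshold), Ifnar2 0.49, Jak1 0.04 (adjusted p = 0.524) and Tyk2 -0.23, and Jak2 was higher at 0.67. The transcription factors of the list did not all go one way, with 7 lower, Irf8 higher, and Stat3 (0.51) and Irf2 not called. Stat2, of ISGF3, had 16.0 and 16.4 CPM in MC011, 38.6 and 37.1 in MC654 and 61.5 and 59.7 in MC659 (log2 fold change -1.6 ± 0.29 SE, adjusted p = 0.00602), and Irf9 had a log2 fold change of -1.13. Irf7, the factor that amplifies interferon production, had 0.947 and 1.58 CPM in MC011, 24.1 and 22.96 in MC654 and 41.8 and 46.5 in MC659 (log2 fold change -4.76 ± 0.55 SE, adjusted p = 0.00141). Irf5 was lower at -2.9, Irf3 at -0.76 and Irf1 at -0.74. Irf2 stood at 0.05 (adjusted p = 0.668). Socs3, an inhibitor of cytokine receptors, was higher (50.7 ± 1.38 CPM in MC011 (SD, n = 2) against 20.8 ± 1.79 CPM (SD, n = 4), log2 fold change 1.28). Over the 21 receptor, JAK-STAT and IRF genes tested, 5 were higher and 7 lower, with a median of 0.36. Of the 5, Irf8 and Ifnlr1 were at or under 3 counts in all WT-labelled libraries, and Ifnb1 was not among the genes analysed here.

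**Figure D3:**
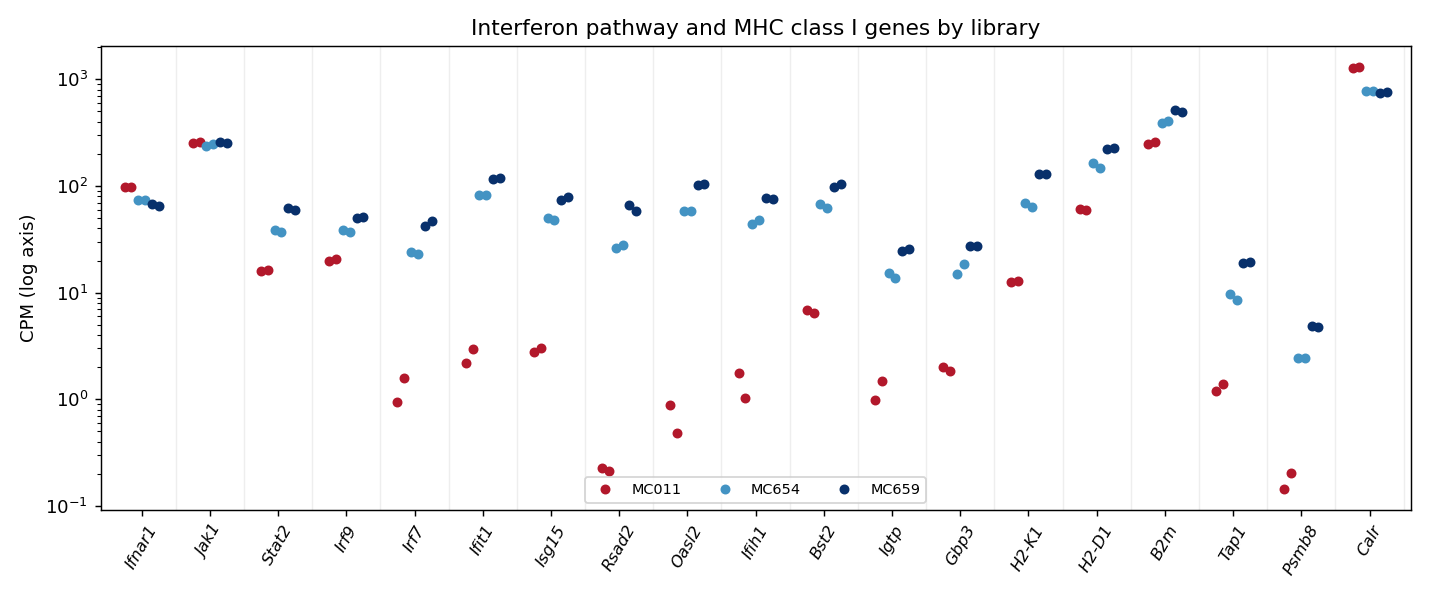
CPM (log axis) of 19 genes of the interferon pathway and of MHC class I in each library, red for MC011, light blue for MC654 and dark blue for MC659. Receptor and kinase genes at the left lie at like levels in all lines, interferon-stimulated genes from Stat2 to Psmb8 are lowest in MC011 and highest in MC659, and Calr at the right is higher in MC011.

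MHC class I, which displays peptides to cytotoxic T cells, and the machinery that loads it were lower in 19 of 23 genes tested, with 1 higher and a median of -1.14. H2-K1, a classical heavy chain, had 12.6 and 12.7 CPM in MC011, 69.8 and 63.5 in MC654 and 129 and 130.2 in MC659 (log2 fold change -2.95 ± 0.46 SE, adjusted p = 0.00493), and H2-D1, the other, had 60.2 ± 1.61 CPM in MC011 (SD, n = 2) against 190.4 ± 41.0 CPM (SD, n = 4) (log2 fold change -1.66 ± 0.23 SE, adjusted p = 0.0023). Because MHC class I genes are close copies of each other, reads may be divided wrongly between them. B2m, the shared light chain, fell less (254 ± 7.41 CPM in MC011 (SD, n = 2) against 451 ± 62.1 CPM (SD, n = 4), log2 fold change -0.83). The peptide transporter genes Tap1 and Tap2 had log2 fold changes of -3.46 and -2.71, and the immunoproteasome genes Psmb8 and Psmb9 of -4.39 and -3.19, with Psmb8 at 0.144 and 0.202 CPM in MC011, 2.46 and 2.42 in MC654 and 4.9 and 4.73 in MC659. Nlrc5, the transactivator of class I genes, was lower at -0.69. The general chaperones differed: Calr was higher (1289.6 ± 20.3 CPM in MC011 (SD, n = 2) against 768 ± 18.0 CPM (SD, n = 4), log2 fold change 0.75 ± 0.04 SE, adjusted p = 2.22e-07), Canx did not pass the test (-0.05, adjusted p = 0.345), and Pdia3 was under the fold threshold (0.57). In MC010, H2-K1 had a mean of 101.5 CPM and Tapbp 152 CPM, within or above the range of the WT-labelled libraries.

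The list of T and NK cell ligands and checkpoints also held receptors such as Fas and Tnfrsf1a and surface enzymes such as Nt5e and Entpd1. Of its 22 genes tested, 11 were higher and 5 lower. Cd274 (PD-L1), the ligand of the PD-1 checkpoint, was lower, with 0.402 and 0.404 CPM in MC011, 2.13 and 2.63 in MC654 and 3.28 and 2.85 in MC659 (log2 fold change -2.75 ± 0.26 SE, adjusted p = 9.07e-06), and so was Tnfrsf14 (-2.73). Cd276 (B7-H3) was higher (77.7 ± 0.297 CPM in MC011 (SD, n = 2) against 34.0 ± 3.1 CPM (SD, n = 4), log2 fold change 1.19 ± 0.08 SE, adjusted p = 6.83e-07), and Cd47, the signal that holds back phagocytosis, was slightly higher (0.60). Ulbp1, a stress ligand of the NK receptor NKG2D, had 56.0 and 55.1 CPM in MC011, 0.872 and 1.06 in MC654 and 1.45 and 1.75 in MC659 (log2 fold change 5.43 ± 0.22 SE, adjusted p = 1.26e-06), and Raet1d, another such ligand, was lower (-1.45). The adhesion ligands Vcam1 and Icam1 were higher: Vcam1 had 225 and 232 CPM in MC011, 28.0 and 30.4 in MC654 and 30.6 and 31.2 in MC659 (log2 fold change 2.93 ± 0.05 SE, adjusted p = 1.72e-10). Icam1 had 3.95 ± 0.0850 CPM in MC011 (SD, n = 2) against 0.130 ± 0.142 CPM (SD, n = 4). Cd24a, a sialic acid-bearing surface protein, had 67.2 ± 0.901 CPM in MC011 (SD, n = 2) against 0.104 ± 0.0782 CPM (SD, n = 4) (log2 fold change 9.31). Lgals1 and Lgals3, galectins, rose by a log2 fold change of 0.93 and 1.2, and the death receptor gene Fas by 1.46.

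Chemokines and cytokines were higher in 12 and lower in 4 of 27 tested, with a median of 0.54. Cxcl5, which attracts neutrophils, had 771 and 717 counts in MC011 and 0 in all 4 WT-labelled libraries, at least 243-fold higher. Cxcl1 had 20.8 and 19.8 CPM in MC011, 0.412 and 0.405 in MC654 and 0.569 and 0.447 in MC659 (log2 fold change 5.46 ± 0.14 SE, adjusted p = 1.39e-09), and Ccl2, which attracts monocytes, had 190.3 and 193 CPM in MC011, 9.74 and 9.6 in MC654 and 19.1 and 18.9 in MC659 (log2 fold change 3.74 ± 0.36 SE, adjusted p = 8.51e-04). Ccl7 was higher at 4.14 and Cxcl16 at 3.51, and Il6 and Csf3 were below 1 CPM in all 6 libraries. Chemokines that interferon can induce were lower in the case of Cxcl10 and Ccl5. Cxcl10 had 3.82 ± 0.102 CPM in MC011 (SD, n = 2) against 31.1 ± 5.78 CPM (SD, n = 4) (log2 fold change -3.02 ± 0.19 SE, adjusted p = 5.11e-06) and Ccl5 1.11 ± 0.354 CPM in MC011 (SD, n = 2) against 15.6 ± 4.45 CPM (SD, n = 4) (log2 fold change -3.8 ± 0.37 SE, adjusted p = 1.89e-04). Il33, an alarmin of stromal cells, was lower as well, with 6.02 and 6.37 CPM in MC011, 130.5 and 135 in MC654 and 92.8 and 87.8 in MC659 (log2 fold change -4.17 ± 0.28 SE, adjusted p = 1.06e-04), and here MC654 lay above MC659. Vegfa was lower at -0.94. Csf1 and Tgfb1 were not called (-0.27 and 0.01).

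Trp53, which encodes the tumor suppressor p53, had 168 and 160.4 CPM in MC011, 32.2 and 31.0 in MC654 and 30.7 and 29.2 in MC659, a 5.33-fold higher mean in MC011 without overlap (log2 fold change 2.41 ± 0.05 SE, adjusted p = 3.75e-10). Its targets as a list did not follow in that direction: of 28 genes tested, Trp53 included, 4 were higher and 6 lower, shares of 14.3% and 21.4% beside 16.6% and 12.8% over all genes tested. Cdkn1a, the cell cycle inhibitor p21, had 7.03 and 7.43 CPM in MC011, 9.83 and 9.73 in MC654 and 8.77 and 8.28 in MC659 (log2 fold change -0.34, adjusted p = 0.0287, under the fold threshold). Mdm2, which degrades p53, had 63.2 ± 0.579 CPM in MC011 (SD, n = 2) against 77.1 ± 2.48 CPM (SD, n = 4) (-0.29), and Bax and Bbc3, which promote cell death, did not pass the test (0.08 and 0.03). The other 3 called higher were Pmaip1 (NOXA), Perp and Fas, at 2.49, 2.62 and 1.46, and the 6 called lower were Plk2, Ddit4, Sesn2, Gls2, Apaf1 and Trp53inp1. Ddit4 and Sesn2 also respond to other stresses. RNA levels do not show the state or activity of the protein.

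The INK4 inhibitors Cdkn2a and Cdkn2b were not called. Cdkn2a, which encodes p16 and ARF, had 341 and 285 CPM in MC011, 381 and 335 in MC654 and 326 and 328 in MC659 (log2 fold change -0.13, standard error 0.09, adjusted p = 0.233). Cdkn2b had 62.5 ± 0.983 CPM in MC011 (SD, n = 2) against 64.3 ± 4.44 CPM (SD, n = 4) (-0.04, adjusted p = 0.63). MC010 had 5.8 CPM of Cdkn2a and 1.01 CPM of Cdkn2b. Of 20 genes of the INK4, cyclin D and RB group, 2 were called, Cdkn1c (-2.01) and Ccne1 (-0.68), both lower. Replication and mitosis genes moved little: 2 of 28 were called, the ribonucleotide reductase gene Rrm2 higher (307 ± 13.7 CPM in MC011 (SD, n = 2) against 161 ± 10.0 CPM (SD, n = 4), 0.93) and the replication licensing gene Cdc6 lower (30.7 ± 0.872 CPM in MC011 (SD, n = 2) against 56.9 ± 3.08 CPM (SD, n = 4), -0.89), and the median of the list was -0.02. Mki67 had 487 ± 2.2 CPM in MC011 (SD, n = 2) against 569 ± 23.7 CPM (SD, n = 4), Pcna 319.6 ± 16.3 CPM in MC011 (SD, n = 2) against 266 ± 10.2 CPM (SD, n = 4) and Ccnb1 241 ± 2.91 CPM in MC011 (SD, n = 2) against 249 ± 7.4 CPM (SD, n = 4), with log2 fold changes of -0.22, 0.26 and -0.04. Of 33 respiratory chain subunits tested, 0 were called by edgeR's test with both thresholds and 0 by DESeq2, with a median of -0.09. By edgeR's test, 19 had an unadjusted p under 0.05 and 17 an adjusted p under 0.05. Among the 17 were Atp5b (-0.55) and Atp5a1 (0.34), and all 17 were under the fold threshold.

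Ferroptosis is a form of cell death by iron-dependent lipid peroxidation, held back by cystine uptake, glutathione and the peroxidase GPX4. The list was drawn from the pathway as the study mapped it on these samples and is not independent evidence of a direction. Of 33 genes tested, 5 were higher and 4 lower, or 15.2% and 12.1%, near the shares of all genes tested. Gpx4 had 184 and 185 CPM in MC011, 188 and 177 in MC654 and 185 and 198 in MC659 (log2 fold change -0.02, adjusted p = 0.766). Slc7a11, the cystine carrier, had 22.4 and 20.1 CPM in MC011, 29.8 and 29.7 in MC654 and 35.4 and 35.7 in MC659, lower by a margin just past the fold threshold (log2 fold change -0.62 ± 0.10 SE, adjusted p = 4.26e-04). It was not called with MC659 left out (log2 fold change -0.47, adjusted p = 8.25e-05), nor without either MC659 library or without replicate 2 of MC011 in turn (from -0.57 to -0.54). In MC010 it had a mean of 128 CPM. Slc3a2, its partner chain, was at -0.32. Cp, the iron-oxidizing ceruloplasmin, had 82.7 and 83.5 CPM in MC011, 4.01 and 5.62 in MC654 and 6.56 and 6.51 in MC659 (log2 fold change 3.87 ± 0.17 SE, adjusted p = 2.84e-06), while Slc40a1 (ferroportin), the exporter it works with, was lower (0.248 ± 0.101 CPM in MC011 (SD, n = 2) against 3.52 ± 1.6 CPM (SD, n = 4), -3.8). The acyl-CoA synthetase genes Acsl1 and Acsl3 differed in opposite directions (1.38 and -1.14). Tfrc, Fth1 and Ftl1, for iron uptake and storage, were not called (0.39, -0.10 and -0.01), and the genes Acsl4 and Sat1 were not analysed here.

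Targets of NRF2, the regulator of the oxidative stress response, were higher in 7 and lower in 4 of 24 tested. The largest called differences were Osgin1 (7.97 ± 0.166 CPM in MC011 (SD, n = 2) against 2.23 ± 0.546 CPM (SD, n = 4), 1.84), Gstm1 (143 ± 0.564 CPM in MC011 (SD, n = 2) against 48.2 ± 2.92 CPM (SD, n = 4), 1.57) and Gsta4 (1.55), and Nqo1 and Srxn1 were higher at 0.86 and 0.97. Abcc1, Cat, Gstp1 and Slc7a11 were lower. Hmox1 and Txnrd1 were not called (-0.53 and 0.23).

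Extracellular matrix genes differed in both directions: 16 of 36 collagens and other matrix proteins tested were higher and 8 lower. Fibronectin, Fn1, had 2096 and 1925 CPM in MC011, 8216 and 7867 in MC654 and 7924 and 8136 in MC659, 4.0-fold lower in MC011 (log2 fold change -2.0 ± 0.05 SE, adjusted p = 1.05e-09), and the thrombospondin gene Thbs1, whose product restrains vessel growth and activates TGF-beta, had 404 and 396 CPM in MC011, 2066 and 2016 in MC654 and 2829 and 2862 in MC659 (log2 fold change -2.61 ± 0.21 SE, adjusted p = 2.46e-04). Col1a2 was lower with 252 and 237 CPM in MC011, 969 and 886 in MC654 and 1226 and 1276.5 in MC659 (log2 fold change -2.15 ± 0.19 SE, adjusted p = 2.50e-04), whereas Col1a1, the other chain of type I collagen, was not called (471 and 404 CPM in MC011, 303 and 254 in MC654 and 459 and 489 in MC659, adjusted p = 0.608). Col4a1, of basement membranes, had 548 and 553 CPM in MC011, 148 and 133 in MC654 and 119 and 128 in MC659 (log2 fold change 2.06 ± 0.07 SE, adjusted p = 1.70e-08), Fbn1, the main fibrillin, had 427 ± 14.0 CPM in MC011 (SD, n = 2) against 76.0 ± 11.3 CPM (SD, n = 4) (log2 fold change 2.49 ± 0.13 SE, adjusted p = 5.92e-06), and Fbn2, a fibrillin of embryonic tissue, had 1577 and 1168 counts against 0, 1, 0 and 4. Col12a1, Col18a1, Fbln5 and the proteoglycan gene Vcan were higher at 2.67, 3.64, 2.64 and 2.19. The microfibril gene Mfap5 (0.44) and Fbln2 (0.43) were not called. Col6a1 and Col6a2 were higher too, but differed between MC654 and MC659, and Col6a3 missed the threshold (adjusted p = 0.0791). Spp1 (osteopontin) and Tnc were lower (-1.76 and -1.38). Spp1 had 364 ± 27.5 CPM in MC011 (SD, n = 2) against 1230.3 ± 73.5 CPM (SD, n = 4).

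Of 23 matrix proteases and inhibitors tested, 10 were higher and 4 lower. Mmp3 (stromelysin-1) had 3982 and 3801 counts in MC011 and 4, 8, 3 and 1 in the WT-labelled libraries. Mmp9, Mmp10 and Mmp13 were higher from low levels, at means of 3.09, 1.94 and 2.48 CPM in MC011, and Mmp2 and Mmp23 were lower (-1.52 and -5.08). The inhibitors also rose: Timp3 had 223 and 224 CPM in MC011, 1.3 and 2.12 in MC654 and 4.02 and 3.23 in MC659 (log2 fold change 6.38 ± 0.38 SE, adjusted p = 1.44e-04) and Timp2 1137 ± 1.22 CPM in MC011 (SD, n = 2) against 439 ± 11.3 CPM (SD, n = 4) (log2 fold change 1.37 ± 0.04 SE, adjusted p = 3.39e-09). Of the adhesion and EMT genes, 10 of 32 tested were higher and 6 lower. Cdh2 (N-cadherin) had 182 ± 2.52 CPM in MC011 (SD, n = 2) against 53.4 ± 4.45 CPM (SD, n = 4) (1.77), Cdh11 20.7 ± 0.527 CPM in MC011 (SD, n = 2) against 1.6 ± 0.423 CPM (SD, n = 4) (3.7) and Cdh13 (T-cadherin) 151 and 147 CPM in MC011, 0.0969 and 0.0595 in MC654 and 2.16 and 3.03 in MC659 (log2 fold change 6.77 ± 0.97 SE, adjusted p = 0.00388). The fibronectin receptor genes Itga5 and Itgb1 were lower (-0.97 and -0.76), and among transcription factors of EMT and mesenchyme Zeb1 was lower (-0.66), Prrx2 was higher (1.8), and Twist1, Twist2, Snai1, Snai2, Zeb2 and Prrx1 were not called.

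Smooth muscle contractile genes are a program of myofibroblasts that the factor SRF drives. The list read here also held Srf itself and Cyr61, Ctgf and Ankrd1, which are not contractile genes. Of its 18 genes tested, 7 were lower and 1 higher, with a median of -0.60. Tagln had 6.99 and 6.76 CPM in MC011, 181 and 168 in MC654 and 197 and 211 in MC659 (log2 fold change -4.78 ± 0.11 SE, adjusted p = 2.32e-09) and Acta2 74.0 and 71.2 CPM in MC011, 301 and 285 in MC654 and 475 and 506 in MC659 (log2 fold change -2.43 ± 0.34 SE, adjusted p = 0.00343). Cyr61, Ctgf, Ankrd1, Srf and Cald1 were also lower (-1.94, -0.84, -0.83, -0.63 and -0.64). Other contractile members, among them Tpm1, Tpm2, Actn1, Cnn2, Smtn and Myl9, were not called (-0.28, 0.17, 0.04, -0.57, -0.22 and -0.36). Mylk, the kinase of myosin light chain, was the member called higher (2.82 ± 0.164 CPM in MC011 (SD, n = 2) against 1.24 ± 0.238 CPM (SD, n = 4), 1.19). Without MC654, 11 of the list were called lower in place of 7.

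Growth factor receptors and ligands differed gene by gene, with 11 of 29 tested higher and 6 lower. Pdgfra, a receptor of mesenchymal cells, had 442 and 444 CPM in MC011, 18.0 and 20.1 in MC654 and 18.3 and 17.2 in MC659, 24.1-fold higher (log2 fold change 4.59 ± 0.06 SE, adjusted p = 4.28e-11), and Pdgfrb was higher at 1.16. Egfr was lower (4.78 ± 0.468 CPM in MC011 (SD, n = 2) against 26.3 ± 2.6 CPM (SD, n = 4), log2 fold change -2.46 ± 0.12 SE, adjusted p = 8.34e-08), and so was Axl (-0.68). Among ligands, Kitl (stem cell factor) had 279 and 298 CPM in MC011, 60.6 and 70.5 in MC654 and 62.8 and 58.0 in MC659 (log2 fold change 2.2 ± 0.07 SE, adjusted p = 7.05e-09) and Fgf10 59.0 ± 1.05 CPM in MC011 (SD, n = 2) against 1.2 ± 0.351 CPM (SD, n = 4) (5.62), while Fgf2 had 8.07 and 8.66 CPM in MC011, 119 and 126 in MC654 and 87.4 and 81.8 in MC659 (log2 fold change -3.63 ± 0.26 SE, adjusted p = 1.21e-04) and Hgf was lower (-2.33). Flt1, a VEGF receptor, was higher (85.8 ± 0.911 CPM in MC011 (SD, n = 2) against 2.36 ± 0.722 CPM (SD, n = 4), 5.19). Output genes of the ERK pathway, which such receptors feed, showed no common direction, with 5 higher and 6 lower of 21. Egr1, an immediate early factor, had 26.4 and 26.3 CPM in MC011, 378 and 354 in MC654 and 368 and 375 in MC659 (log2 fold change -3.81 ± 0.06 SE, adjusted p = 5.69e-11), Dusp5 was lower (-1.5), Myc was lower (491 ± 15.0 CPM in MC011 (SD, n = 2) against 845.5 ± 55.5 CPM (SD, n = 4), -0.78), and Etv1, Spry2 and Fosl1 were higher (2.64, 1.53 and 0.91).

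**Figure D4:**
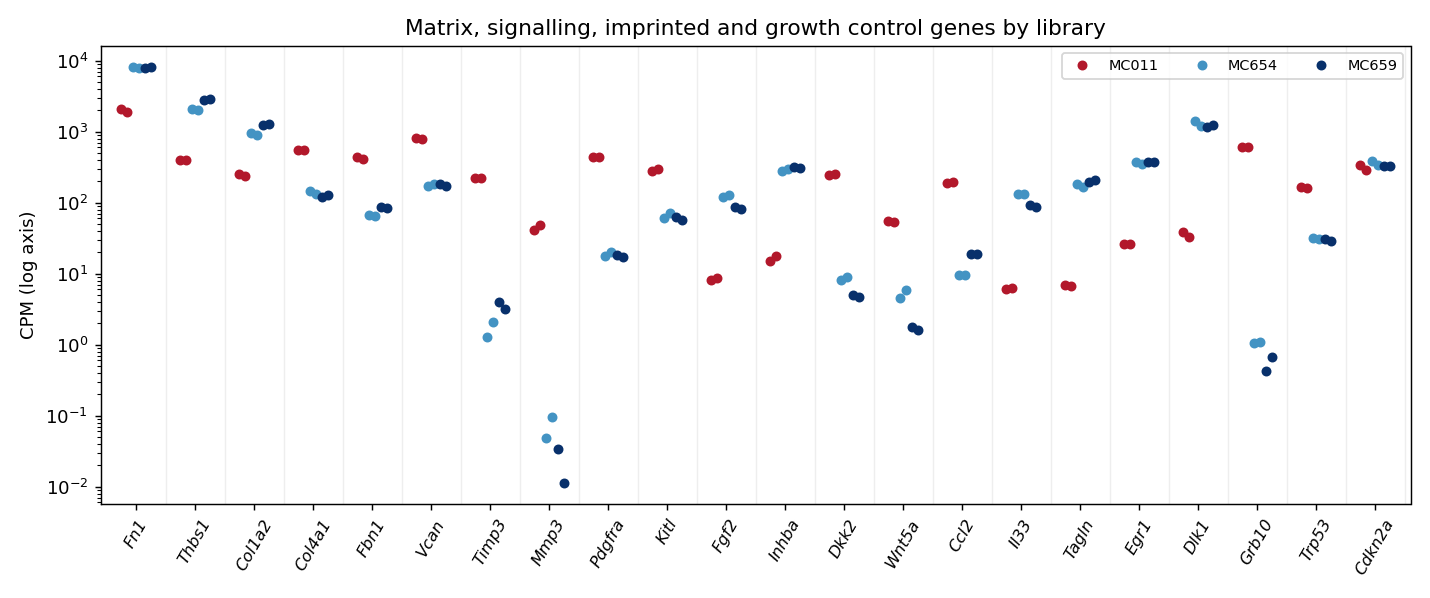
CPM (log axis) of 22 genes of the matrix, signalling, imprinted and growth control lists in each library, red for MC011, light blue for MC654 and dark blue for MC659. MC011 lies away from all 4 WT-labelled libraries in every gene shown except Cdkn2a, where the groups overlap. Mmp3 has between 1 and 8 counts in the WT-labelled libraries.

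Of the TGF-beta, BMP and activin genes, 14 of 35 tested were higher and 3 lower, with a median of 0.57. Bmp2, Bmp4, Bmp6 and Bmp7, ligands that direct bone and limb formation, were higher. Bmp1, which is not such a ligand, was not called (0.05). Bmp4 had 1131 and 959 counts in MC011 against 0, 0, 0 and 2, at least 339.9-fold higher, and Bmp6 had 35.3 ± 2.04 CPM in MC011 (SD, n = 2) against 0.992 ± 0.432 CPM (SD, n = 4) (log2 fold change 5.15 ± 0.33 SE, adjusted p = 4.19e-05). The activin receptor genes Acvr1, Acvr2a and Acvr2b were not called (-0.40, 0.20 and 0.47). Inhba, the activin A subunit, had 15.0 and 17.9 CPM in MC011, 278 and 299 in MC654 and 313 and 307 in MC659 (log2 fold change -4.19 ± 0.09 SE, adjusted p = 5.29e-10), and Inhbb was lower at -4.31, whereas Fst (follistatin), which binds and blocks activin, had 7121 and 5941 counts in MC011 and 3, 8, 2 and 0 in the WT-labelled libraries, too few for a fitted fold to be read. MC010 had a mean of 400.3 CPM of Fst and 196 CPM of Inhba. Among antagonists of BMP, Nog had 75 and 63 counts against 0, 0, 0 and 1, Chrd was higher (4.07) and Grem1 was not called (adjusted p = 0.17). The transducers Smad2, Smad3 and Smad6 and the BMP target Id3 were higher (0.62, 1.23, 1.29 and 1.11), and the receptors Tgfbr2, Bmpr1a and Bmpr2 were not called.

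Wnt genes had the highest median of the lists, 1.17, with 22 of 34 tested higher and 3 lower. Secreted antagonists were among those higher. Dkk2 had 244 and 252 CPM in MC011, 8.15 and 8.96 in MC654 and 4.94 and 4.62 in MC659 (log2 fold change 5.22 ± 0.30 SE, adjusted p = 1.04e-04), Dkk3 70.7 ± 0.844 CPM in MC011 (SD, n = 2) against 2.63 ± 1.28 CPM (SD, n = 4) (log2 fold change 4.74 ± 0.43 SE, adjusted p = 6.57e-04), Sfrp2 34.7 ± 0.418 CPM in MC011 (SD, n = 2) against 1.67 ± 0.321 CPM (SD, n = 4) (log2 fold change 4.37 ± 0.14 SE, adjusted p = 7.37e-09), and Sfrp1 1915 and 1610 counts against 5, 2, 0 and 1. Ligands were higher as well, with Wnt5a at 55.1 and 54.1 CPM in MC011, 4.59 and 5.91 in MC654 and 1.8 and 1.63 in MC659 (log2 fold change 3.97 ± 0.57 SE, adjusted p = 0.00362) and Wnt10b at 68.7 ± 1.51 CPM in MC011 (SD, n = 2) against 19.7 ± 4.19 CPM (SD, n = 4) (1.8). Wnt4, Wnt2 and Wnt5b were higher at means of 3.38, 1.44 and 5.2 CPM in MC011, and Wnt10a, Wnt9a and Lef1 were the 3 lower (-6.06, -1.21 and -1.87). Axin2, a target of the canonical pathway, was higher at a low level (1.05 ± 0.0977 CPM in MC011 (SD, n = 2) against 0.101 ± 0.0907 CPM (SD, n = 4)), and Lef1, a nuclear partner of beta-catenin, had 4.47 ± 0.427 CPM in MC011 (SD, n = 2) against 16.4 ± 3.52 CPM (SD, n = 4). The co-receptor Lrp5 was higher (1.05) and Lrp6 was not called (-0.19).

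HOX genes, ordered along each cluster as along the body axis, were higher in 14 and lower in 5 of 33 tested. Those higher held members numbered 13 of all 4 clusters and the run from Hoxb5 to Hoxb9. Hoxa11 had 12.6 and 12.7 CPM in MC011, 0.0363 and 0.155 in MC654 and 0.114 and 0.313 in MC659 (log2 fold change 6.33 ± 0.42 SE, adjusted p = 1.25e-05), Hoxb9 80.8 and 83.0 CPM in MC011, 9.29 and 10.1 in MC654 and 11.8 and 11.03 in MC659 (log2 fold change 2.96 ± 0.09 SE, adjusted p = 2.39e-09), and Hoxd13 124 and 82 counts against 0 in all 4 WT-labelled libraries, at least 33.1-fold higher. Hoxa13, Hoxb13, Hoxc13 and Hoxd10 were each between 0.968 and 1.7 CPM in the MC011 libraries and at or under 0.114 CPM in the WT-labelled ones. Like Hoxd13, they passed the filter on low counts only through MC011, so the filter fixed their direction. The count of 14 higher includes them. Hoxc10 was lower (4.01 and 4.2 CPM in MC011, 27.3 and 25.8 in MC654 and 29.3 and 30.5 in MC659, log2 fold change -2.78 ± 0.10 SE, adjusted p = 1.11e-08). Hoxa10, Hoxa3, Hoxa2 and Hoxc4 were also lower. Hoxb2, Hoxb3 and Hoxb4 were not called, with log2 fold changes of 0.10, 0.12 and 0.02.

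Other factors of position and mesoderm were higher in 16 and lower in 3 of 30 tested. Tbx15, a factor of dermal mesenchyme, had 200.3 and 201 CPM in MC011, 43.3 and 45.8 in MC654 and 44.3 and 42.7 in MC659 (log2 fold change 2.19 ± 0.05 SE, adjusted p = 3.23e-10), Osr2 18.2 ± 0.627 CPM in MC011 (SD, n = 2) against 0.609 ± 0.0903 CPM (SD, n = 4) (log2 fold change 4.9 ± 0.14 SE, adjusted p = 2.50e-09) and Pax3 738 and 606 counts against 1, 3, 3 and 4. Meis1 and Pbx3, partners of HOX proteins, were lower (-1.02 and -0.71). En1, Tbx18 and Shox2 were not called. Tbx20, a cardiac factor, had 310 and 258 counts in MC011 and 0 in the WT-labelled libraries.

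Imprinted genes, which are read from only the maternal or the paternal copy and often act in growth, were called in 19 of 24 tested, 13 higher and 6 lower. Grb10, which encodes an adaptor that restrains insulin signalling, had 601 and 609.9 CPM in MC011, 1.04 and 1.09 in MC654 and 0.421 and 0.670 in MC659, a 750.1-fold higher mean in MC011 (log2 fold change 9.56 ± 0.23 SE, adjusted p = 1.08e-06). Of the tested genes next to it on either side, Ddc had 6 and 2 counts in MC011 against 13, 10, 11 and 27 (adjusted p = 0.0407, called lower). Cobl, on the other side, had 6.27 ± 0.593 CPM in MC011 (SD, n = 2) against 1.04 ± 0.992 CPM (SD, n = 4) (2.59, adjusted p = 0.0986, not called). Fignl1, next but one, had 63.5 ± 3.37 CPM in MC011 (SD, n = 2) against 76.2 ± 2.07 CPM (SD, n = 4) (-0.26, not called). Dlk1, a preadipocyte factor read from the paternal copy, had 38.6 and 33.3 CPM in MC011, 1393 and 1196 in MC654 and 1183 and 1228 in MC659, 34.7-fold lower (log2 fold change -5.12 ± 0.11 SE, adjusted p = 1.55e-09), while Meg3, Rian and Dio3 from the same domain were higher (3.54, 3.28 and 5.11). Zrsr1 had 1546 and 1346 counts against 1, 1, 1 and 2, at least 471-fold higher, and Peg3 had 1200 and 952 counts against 2, 5, 3 and 8. Peg10 was higher (149 ± 4.63 CPM in MC011 (SD, n = 2) against 29.5 ± 1.77 CPM (SD, n = 4), 2.34). Snrpn and Ndn, neighbours on chromosome 7, were both lower (-4.99 and -2.33). Gnas and Igf2r were not called (0.00 and 0.57). Counts per gene do not tell the parental copies apart. In MC010, Grb10 had a mean of 15.5 CPM and Dlk1 40.6 CPM.

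Metabolic genes that were called were mostly lower. Of 22 sterol synthesis genes tested, 12 were lower and 0 higher, with a median of -0.73. Fdps, which makes farnesyl pyrophosphate, had 8.31 and 10.1 CPM in MC011, 21.5 and 19.5 in MC654 and 22.6 and 22.5 in MC659 (log2 fold change -1.23 ± 0.11 SE, adjusted p = 5.23e-06), and Hmgcs1, Msmo1 and Dhcr7 were lower at -1.04, -1.08 and -1.31. Sqle and Idi1 of the same route were not called (0.16 and -0.11), nor was Srebf2, the factor that drives it (0.00). In the ATF4 stress response, which supplies amino acids, 14 of 22 were lower and 1 higher, with a median of -0.67. Aldh1l2, Sesn2, Pck2 and Psph had log2 fold changes of -1.83, -1.37, -1.13 and -0.88, Asns of -0.66, and Atf4 itself of -0.34, under the fold threshold. Of 29 glycolysis and hypoxia genes, 10 were lower and 3 higher. The lactate exporter gene Slc16a3 had 17.6 and 16.5 CPM in MC011, 312 and 275 in MC654 and 241 and 248 in MC659 (log2 fold change -3.98 ± 0.13 SE, adjusted p = 1.16e-07) and the phosphofructokinase gene Pfkp 13.8 and 13.0 CPM in MC011, 154 and 149.6 in MC654 and 175 and 172 in MC659 (log2 fold change -3.6 ± 0.09 SE, adjusted p = 8.46e-10). Pfkm, another phosphofructokinase gene, was higher (0.68), Ldha, Gpi1 and Slc2a1 were lower (-0.70, -1.07 and -0.80), and Gapdh and Pkm were not called (0.02 and 0.20).

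A rule over all genes also picked genes by the size of the difference. Eligible genes had more than 3 counts in all 6 libraries and a call in the same direction against both WT-labelled lines. The log2 of their average CPM over the 6 libraries was 1 or more, which a gene high in MC011 alone can reach. The 12 largest log2 fold changes above were Grb10, Peli2, Ackr3, Sox11, Lama4, Amigo2, Tchh, Lepr, Ptgis, Cdh13, Fat4 and Slco4a1. Ackr3, a scavenger receptor of CXCL12, had 30.1 and 28.2 CPM in MC011, 0.133 and 0.0714 in MC654 and 0.125 and 0.0559 in MC659 (log2 fold change 8.22 ± 0.19 SE, adjusted p = 5.29e-10). Sox11, a factor of neural and mesenchymal progenitors, had 56.2 and 57.0 CPM in MC011, 0.170 and 0.226 in MC654 and 0.228 and 0.324 in MC659 (log2 fold change 7.88 ± 0.13 SE, adjusted p = 1.71e-10). Lama4, a laminin chain of vessels and muscle, had 57.0 ± 0.334 CPM in MC011 (SD, n = 2) against 0.315 ± 0.140 CPM (SD, n = 4) (log2 fold change 7.51 ± 0.24 SE, adjusted p = 2.87e-07), and Lepr, the leptin receptor, 21.0 ± 1.33 CPM in MC011 (SD, n = 2) against 0.171 ± 0.0764 CPM (SD, n = 4) (log2 fold change 6.92 ± 0.26 SE, adjusted p = 5.86e-08). The 12 largest below held 5 interferon response effectors (Rsad2, Usp18, Oasl2, Ifi44 and Oasl1), the GTPase gene Iigp1, and, among others, Esm1, Tnfrsf26, Slc16a11 and Dynap. Esm1, a secreted proteoglycan known from endothelium, had 0.185 and 0.479 CPM in MC011, 374 and 383 in MC654 and 259.9 and 265 in MC659 (log2 fold change -9.97 ± 0.46 SE, adjusted p = 3.97e-05). Tnfrsf26, a receptor of the TNF family, had 0.0824 and 0.227 CPM in MC011, 71.4 and 75.4 in MC654 and 55.7 and 53.7 in MC659 (log2 fold change -8.74 ± 0.36 SE, adjusted p = 3.65e-06).

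Some genes were at or near 0 counts on one side. The rule named 8 genes with the highest level in MC011 and at most 3 counts in each WT-labelled library: Prelp, Scara5, Gnai1, Cadm1, Zrsr1, Bmp4, Aldh3a1 and Cxcl5. Prelp, a small proteoglycan of connective tissue, had 4768 and 3591 counts against 0, 1, 0 and 2, at least 1351.5-fold higher. Scara5, a scavenger receptor of adventitial fibroblasts, had 3210 and 2772 counts against 0, 0, 0 and 1, at least 974-fold higher. In MC010, Scara5 had a mean of 43.2 CPM and Prelp 0.381 CPM. Over all genes, 104 of those tested had 0 counts in all 4 WT-labelled libraries, 19 of them at 1 CPM or more in MC011, among them the complement regulator Cd55 (8.11 CPM) and the iron-binding Lcn2 (4.92 CPM), which were chosen after their values were seen.

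In the other direction, 72 genes had 0 counts in both MC011 libraries, and 5 of these were at 1 CPM or more in the WT-labelled lines. Nmral1, which encodes a sensor of the NADPH redox state, had 0 counts in both MC011 libraries and 2025, 1914, 1639 and 1868 in the WT-labelled ones, at least 632-fold lower in MC011. Of its 8 nearest neighbours among the genes tested on chromosome 16 of mm10, Coro7 was called lower (-1.02) and the other 7 were not called. Dnaja3 had 81.1 CPM in MC011 and 89.0 CPM in the WT-labelled lines, and Hmox2 37.4 and 43.5 CPM. Nmral1 lies at 4710059 to 4719356. MC010 had a mean of 31.0 CPM of Nmral1. Gsdmc, a pore-forming gasdermin, had 0 counts in MC011 and 160, 200, 146 and 146 in the WT-labelled libraries, and here the tested neighbours were lower too. Of 9 genes next to each other among those tested on chromosome 15, from 63490962 to 63925666, all were called lower. In 8 of them both MC011 libraries had 0 counts. Those 8 passed the filter on low counts only through the WT-labelled libraries, so the filter fixed their direction. Genes that failed the filter are not counted here. The exception was Gsdmc4, with 0.255 ± 0.00358 CPM in MC011 (SD, n = 2) against 2.53 ± 0.572 CPM (SD, n = 4) (-3.31). Gsdmc and its relatives are close copies, so reads may be divided wrongly between them, and their levels were at most 2.53 CPM on average in the WT-labelled lines. Cdh15 (M-cadherin), of muscle precursors, was also at 0 in MC011 (4.3 ± 0.474 CPM, SD, n = 4, in the WT-labelled lines).

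The genes with the largest absolute difference in CPM, a scale on which long and abundant RNAs weigh most, were named by the same rule. Those higher were Lgals1, Plec, Igfbp4, Anxa2, Crabp1, Timp2, Vcan and Slc14a1. Lgals1 had 3532 and 3609 CPM in MC011, 2023.5 and 1896 in MC654 and 1719 and 1869 in MC659. Igfbp4, which binds insulin-like growth factors, had 969 and 904 CPM in MC011, 115 and 111 in MC654 and 142 and 148 in MC659 (log2 fold change 2.86 ± 0.13 SE, adjusted p = 3.62e-06), and Crabp1, which binds retinoic acid, 946 and 888 CPM in MC011, 239 and 219.7 in MC654 and 195 and 209.9 in MC659 (log2 fold change 2.09 ± 0.07 SE, adjusted p = 1.46e-08). Those lower were Fn1, Eef2, Thbs1, Scd2, Dlk1, Actg1, Axl and Ldha. Eef2, the elongation factor, had 3216 and 3147 CPM in MC011, 5595 and 5088 in MC654 and 5030.3 and 5436 in MC659 (log2 fold change -0.73), a modest fold on an abundant RNA, and Scd2, a fatty acid desaturase, 1119 ± 4.45 CPM in MC011 (SD, n = 2) against 2534 ± 172 CPM (SD, n = 4) (-1.18).

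Differences also ran along chromosomes. Genes were used whose average CPM over the 6 libraries had a log2 of 1 or more. Their median log2 fold change was 0.348 on chromosome 15 (461 genes), 0.248 on chromosome 13 (432 genes) and 0.151 on chromosome 12 (403 genes). It was lowest on chromosome 7, at -0.178 (841 genes). On chromosome 15, 26.9% of these genes were called higher and 6.94% lower, and on chromosome 7, 8.68% and 19.5%. MC654 and MC659 differed by no more than 0.043 in size on any chromosome. The medians on chromosome 15 were 0.355 against MC654 and 0.368 against MC659. Against MC010 they were -0.011 on chromosome 15, 0.328 on chromosome 13, 0.497 on chromosome 12 and 0.161 on chromosome 7. In 201 windows of 10 Mb with at least 20 such genes, the medians ran from -0.63 to 0.60 for MC011 and from -0.11 to 0.07 between the WT-labelled lines. The lowest lay on chromosome 4 from 10 to 20 Mb (27 genes) and the highest on chromosome 13 from 30 to 40 Mb (37 genes). DNA copy number was not measured, and whether it differed was not tested. Lgals1, Plec and Amigo2 lie on chromosome 15, and Vcan and Esm1, which went in opposite directions, on chromosome 13.

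**Figure D5:**
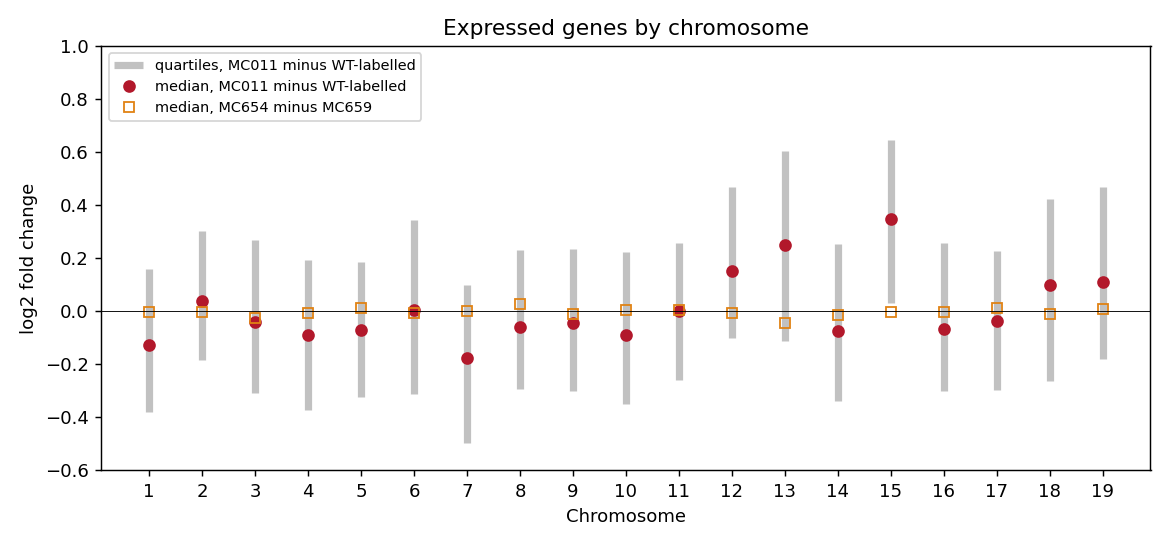
Median log2 fold change on each of 19 chromosomes, over genes whose average CPM had a log2 of 1 or more. Red circles are MC011 minus the WT-labelled lines, with grey bars from the lower to the upper quartile, and open squares are MC654 minus MC659. The circles on chromosomes 12, 13 and 15 are the highest and that on chromosome 7 the lowest, and all squares lie near 0.

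The calls were also counted with 1 WT-labelled line left out. With MC654 left out 4407 of the 4735 genes were called in the same direction, and with MC659 left out 4249. When the 2 libraries of each line were added together, which leaves 1 line against 2 with the spread taken from MC654 and MC659 alone, 3487 of them were.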

How the data were processed

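RNA was taken from cultured lines and sequenced as stranded mRNA libraries. Per the labels and the study's methods, the authors aligned reads to mm10 (GRCm38.p6) with STAR and counted them per gene with HTSeq. The submitters' processing notes give STAR 2.7.3a and HTSeq 0.11.2, the study's methods give other versions, and the strand setting of the counting is not given in the sources used here. Antisense and overlapping genes are therefore uncertain.

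The deposited table holds raw counts per gene, which were used, for 18768 genes with at least 20 counts over 8 libraries. No gene of a sex chromosome (X or Y) was analysed here. It also holds signal columns, which are counts the authors divided by DESeq2 size factors. The authors' own comparison columns (log2 fold change, test score and p-value) were not used.

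Libraries were grouped by label. Counts of 6 libraries were filtered with filterByExpr, scaled by TMM and tested with edgeR 4.0.16 (robust quasi-likelihood, R 4.3.3), MC011 against the 4 WT-labelled libraries, with Benjamini-Hochberg adjustment over all 16095 genes. A call needed an adjusted p below 0.05 and a log2 fold change larger than 0.59 in either direction. A second fit over 8 libraries had a group per line. Scripts were tested on simulated data. A library's floor was 3 counts. Where several identifiers shared a symbol, the one with the most counts was used in lists. Alternatives were DESeq2 1.42.0, limma 3.58.1, other filters and scalings, a replicate block, summed lines, and leaving out libraries or lines.

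The genes compared, lists and tests were chosen with earlier results of these data known. Named were Irf8, list members and, among genes called against each WT-labelled line, the 12 largest fold changes each way, the 8 highest each way with the other side at the floor, and the 8 largest CPM differences each way. Some list members and named genes are not reported here, though counts of lists include them.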

Additional observations from a re-analysis of the deposited data

Results flagged for a closer look

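For 32 genes followed through all fits, the line MC011 was also set against MC010, the other line labelled IRF8 KO, in the fit with a group per line, and 26 differed past both thresholds. As log2 differences of MC011 minus MC010, the interferon and antigen presentation genes were lower in MC011: Isg15 by -2.15, Rsad2 by -4.15, Irf7 by -1.43, H2-K1 by -3.0 and Cd274 by -1.78. Irf8 differed by -4.18, Trp53 by -1.06, Cdkn1a by -1.99 and Slc7a11 by -2.58, and Cdkn2a was higher in MC011 by 5.74. Nmral1 differed by -14.43, a fitted value that depends on the prior count because MC011 had 0 counts.

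Among matrix and signalling genes, the differences were 0.81 for Fn1, -1.67 for Col1a2, -2.26 for Fbn2, 0.99 for Timp3, 2.64 for Pdgfra, -2.43 for Fst, -3.58 for Inhba and 1.23 for Sfrp1. Those of Grb10, Cxcl5 and Ccl2 were 5.29, 4.6 and 1.74, and those of Ulbp1, Il33, Tagln and Egr1 were -1.46, -0.66, -1.0 and -1.28.

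In 2 of the 32 genes, a WT-labelled library stood apart from the other 3: Cdkn2a in replicate 1 of MC654, at 381 CPM, and Bmp4 in replicate 2 of MC659, at 0.0223 CPM, which is 2 counts. Chance gives about 1 such gene in 20.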

How the results depend on the processing

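Counts of genes and of list members called were within 1.5 times those reported under the alternatives run, with these exceptions. By the adjusted p alone, with any size of fold change, 4585 were above and 4333 below and 19 glycolysis and hypoxia genes were lower, since more genes then qualify, and Cdkn1a passed at -0.34. With MC654 left out, 11 genes of the smooth muscle contractile list were lower. Slc7a11 fell under the fold threshold with MC659 left out (-0.47) and without replicate 2 of MC011, replicate 1 of MC659 or replicate 2 of MC659 (-0.57 to -0.54). The cause was not tested. Of the 32 genes followed, none that was called above changed direction in the fits that tested it. For followed genes not called, such as Cdkn1a and Cdkn2a, a change of direction was not counted. Irf8 could not be tested without replicate 1 of MC011, where it failed the filter. With the replicate number as a block, 2582 genes were higher and 1965 lower, and 4517 of the 4735 calls were shared. Deviations of same-numbered libraries from the mean of their line correlated across genes at 0.31 for MC011 and MC654. The values were -0.15 for MC011 and MC659 and -0.24 for MC654 and MC659. With 2 libraries per line, these values cannot decide whether the numbers pair the libraries. With lines as a random block in limma, the estimated correlation was 0.225. Depth limits genes near 3 counts per library.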
